A study of Mus musculus with 12 samples.

Results

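The 10 genes described here are components of bone morphogenetic protein (BMP) signaling: the ligands Bmp2, Bmp4, Bmp6 and Gdf6, the secreted antagonist Chrdl2, the co-receptor Tgfbr3, the inhibitory SMAD Smad6, and the target genes Id1, Id2 and Id3. They were picked by gene symbol, and all 10 were present among the 16169 genes listed for the genotype comparison and among the 16503 genes listed for the culture comparison. RNA was measured in 12 SMART-seq libraries of 1000 mouse cells each, in 4 groups of 3 libraries. In the genotype comparison, muscle stem cells (MuSCs) came from male mice, either wild-type (WT) or Nedd4L-cKO, whose age was 5 to 6 weeks. The Nedd4L-cKO line was Nedd4L fl/fl Pax7 cre/+ on a C57BL/6 background, in which exon 15 of the gene for the E3 ubiquitin ligase Nedd4L is flanked by loxP sites. Cre is expressed from the Pax7 locus, so the deletion is made in Pax7-expressing cells, and the gene is still transcribed without this exon. The authors state as a limitation that other cells of the lineage, up to differentiated myofibers, carry the deletion too. Which of these alleles the WT mice carried is not given in the sources used here. In the culture comparison, 3 libraries of freshly isolated WT MuSCs were compared with 3 libraries of WT primary myoblasts, grown from sorted MuSCs for 3 days in Ham's F10 with fetal bovine serum and basic fibroblast growth factor. The age of these mice, and whether MuSC and myoblast libraries with a shared number came from 1 animal, are not given in the sources used here. MuSCs of both comparisons were sorted from hindlimb muscle as ITGA7+/Hoechst+ cells negative for CD31, CD45, CD11b and SCA1.

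BMP ligands are secreted dimers that bind type I and type II receptor kinases, which phosphorylate SMAD1, SMAD5 and SMAD9. These enter the nucleus with SMAD4 and activate target genes, of which the Id genes are the best known, while Smad6 feeds back to dampen the signal. Id proteins lack a DNA-binding domain and pair with E proteins, the partners of MyoD and the other myogenic factors, and in MuSCs BMP signaling is known for favoring proliferation over differentiation.

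The Id genes carry a known SMAD composite element upstream, which is shown here because, of the 10 genes, these 3 alone held it in the window searched. It consists of a GGCGCC box, or in its relaxed form GGCGNC, followed after any 5 bases by GTCT. In the GRCm39 genome, the 5000 bases upstream of the canonical start of 21767 protein-coding genes were searched on both strands. The relaxed form includes the strict one, and it was present upstream of 161 genes (0.74%), against 48 genes (0.221%) for the strict form. Among the 10 BMP genes it was present upstream of Id1, Id2 and Id3 only. The element was first described on Id genes, so its presence there is a description and not a result of these libraries. The 3 sites are written below in the direction of transcription, 95 bases each, with both boxes of the element in capitals.
Id1, chr2:152577086-152577180, plus strand: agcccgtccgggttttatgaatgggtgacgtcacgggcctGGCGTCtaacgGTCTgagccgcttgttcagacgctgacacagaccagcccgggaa
Id2, chr12:25148813-25148907, minus strand: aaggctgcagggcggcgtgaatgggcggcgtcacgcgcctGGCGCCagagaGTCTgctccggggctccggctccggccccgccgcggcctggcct
Id3, chr4:135867811-135867905, plus strand: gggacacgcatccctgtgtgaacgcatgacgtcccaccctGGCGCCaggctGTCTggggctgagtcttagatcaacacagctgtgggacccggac
The Id2 and Id3 sites matched the strict form and the Id1 site only the relaxed one. The element began 1039 bases before the canonical start of Id1, 1585 bases before that of Id2 and 2957 bases before that of Id3. By the annotation, the Id1 site is in an intron of a longer Id1 transcript, the Id2 site is in an intron of the long noncoding RNA gene Gm36287 on the other strand, and the Id3 site is between genes. A TGACG half-site, in either direction, is the core of the site bound by CREB and ATF factors. The nearest one began 12 bases before the element at Id1, 12 bases before it at Id2 and 14 bases before it at Id3. At Id1 half-sites of both directions overlapped, as tgacgtca. Such a half-site lay within the 40 bases before the element at 11 of the 161 genes with the relaxed form, these 3 included.

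Expression is given as RPM, the normalized count of a gene per 1000000 of the mean library total of its table, and for comparisons between genes as RPM per kb of exonic length. Normalized counts summed to between 40323468 and 50687122 in the 6 genotype libraries and to between 33189802 and 37595659 in the 6 culture libraries, while the read depth is unknown. The targeted gene Nedd4l was at 70.2, 96.4 and 66.7 RPM in WT MuSCs, against 30.2, 36.3 and 22.5 RPM with the deletion. It fell by 1.37 on the log2 scale (SE 0.28, adjusted p = 0.0467), which is a gene-level value and does not read exon 15 itself. Pax7, the defining MuSC factor, was between 156 and 302 RPM in the 6 genotype libraries and between 151 and 249 RPM in the freshly isolated MuSCs, against 17.8 to 21.2 RPM in the myoblasts. Of the genes behind the negative gates, Ptprc (CD45) reached at most 0.533 RPM, Itgam (CD11b) at most 1.59 RPM and Ly6a (SCA1) at most 2.69 RPM, while Pecam1 (CD31) reached 49.9 RPM. In the genotype comparison 100 of 15304 tested genes (0.653%) were called, which required an adjusted p of 0.05 or less, a log2 fold change of 1 or more in either direction and 5 RPM or more on average, and 120 genes (0.784%) passed the adjusted p alone. In the culture comparison 6566 of 15345 tested genes (42.8%) passed an adjusted p of 0.05 or less, the rule used there. All 10 BMP genes were tested in both comparisons.

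Between Nedd4L-cKO and WT MuSCs, Chrdl2 fell and Id2 rose, and these were the 2 BMP genes called. Gdf6 also had an adjusted p under 0.05, but its mean of 4.78 RPM was below the limit of 5 RPM. Id1, Id3, Bmp2, Bmp4, Bmp6, Smad6 and Tgfbr3 did not pass. In these bulk libraries, fewer cells expressing a gene and less of its RNA per cell cannot be told apart. Between myoblasts and freshly isolated MuSCs, 7 of the 10 genes passed: Bmp2, Bmp4, Bmp6, Chrdl2, Tgfbr3 and Id3 fell and Id1 rose. Over all tested genes, 22.2% rose and 20.6% fell in culture. The plot of levels by library shows these values for each gene.

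**Figure D1:**
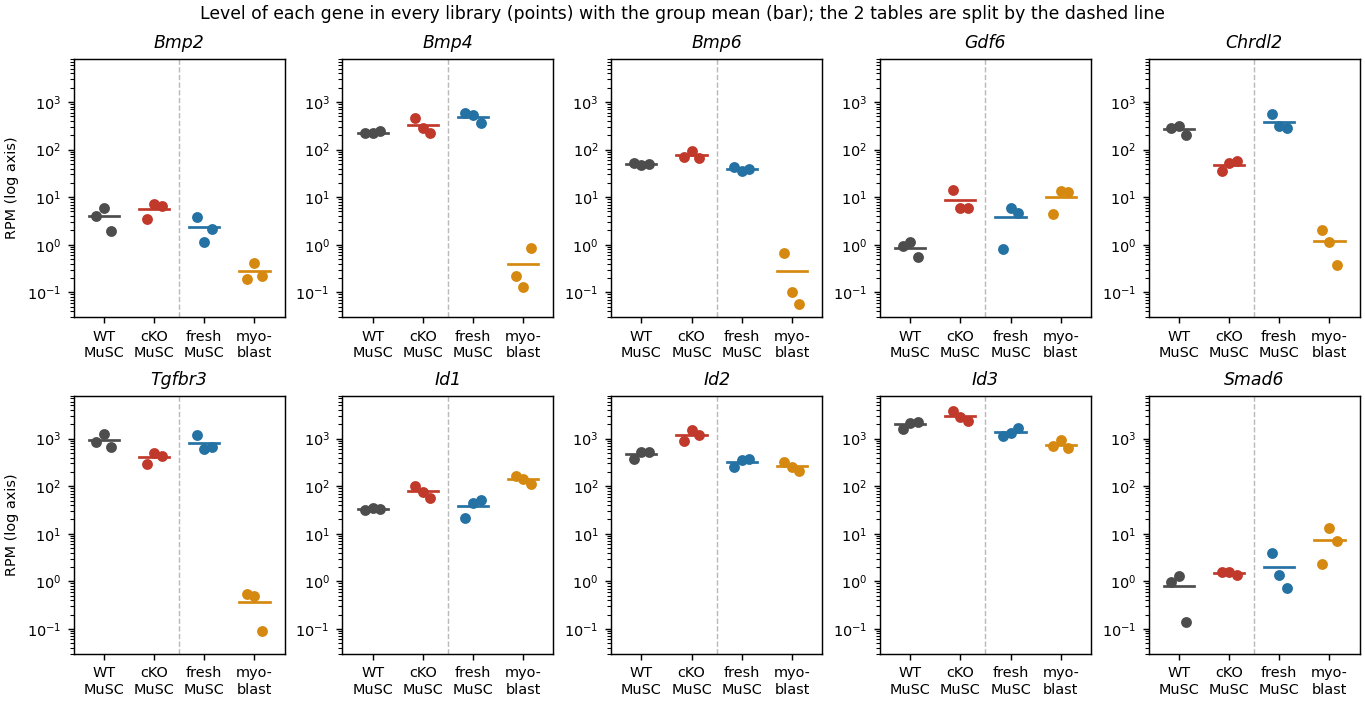
Level of the 10 BMP genes in every library, in RPM on a log axis, with WT and Nedd4L-cKO MuSCs left of the dashed line and freshly isolated MuSCs and myoblasts right of it. Points are libraries and bars the group means. Bmp4, Bmp6, Chrdl2 and Tgfbr3 are at most 2.06 RPM in the 3 myoblast libraries and at least 34.7 RPM in the 3 freshly isolated MuSC libraries, and Chrdl2 in Nedd4L-cKO MuSCs lies below all WT MuSC libraries.

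Among the ligands, Bmp4 (chromosome 14, 46620250 to 46636745, minus strand) had the highest RPM per kb in all 3 groups of MuSCs. It was at 220.4, 219.7 and 244 RPM in the WT MuSCs, against 461, 284 and 224 RPM in the Nedd4L-cKO MuSCs. The Nedd4L-cKO values spread more widely than the WT values and overlapped with them at the lower end. Its log2 fold change was 0.44 (SE 0.28, 95% interval -0.19 to 1.06, adjusted p = 0.519), so a difference was not detected. In culture the picture was different, since Bmp4 was at 581, 536 and 357 RPM in the freshly isolated MuSCs and at 0.219, 0.131 and 0.847 RPM in the myoblasts. Bmp4 fell by 8.46 on the log2 scale (SE 0.30, adjusted p = 7.18e-07), and the ratio of the group means was 1230. The myoblast values rest on 7.73, 4.62 and 29.9 normalized counts, so this ratio is imprecise. The call held under the 13 alternatives in which Bmp4 was tested.

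Bmp6, a ligand also known for its part in iron homeostasis, was lower than Bmp4 per kb in all 3 groups of MuSCs (chromosome 13, 38529065 to 38684280, plus strand). It was at 51.4, 47.1 and 50.5 RPM in the WT MuSCs, against 69.8, 92.6 and 67.7 RPM in the Nedd4L-cKO MuSCs. All Nedd4L-cKO libraries were above all WT libraries, but the log2 fold change of 0.60 (SE 0.24, 95% interval 0.07 to 1.14) had an adjusted p of 0.289. In the culture comparison it was at 42.1, 34.7 and 39.6 RPM in the freshly isolated MuSCs and at 0.675, 0.104 and 0.0554 RPM in the myoblasts. Bmp6 fell by 4.99 on the log2 scale (SE 0.32, adjusted p = 9.69e-06). The lowest myoblast value rests on 1.95 normalized counts.

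Bmp2 (chromosome 2, 133394079 to 133404816, plus strand), a ligand closely related to Bmp4, was low in every group. It was at 3.98, 5.86 and 1.93 RPM in the WT MuSCs, against 3.54, 7.02 and 6.41 RPM in the Nedd4L-cKO MuSCs. These groups overlapped, and its log2 fold change was 0.48 (SE 0.41, 95% interval -0.43 to 1.38, adjusted p = 0.637). In the freshly isolated MuSCs it was at 3.91, 1.16 and 2.11 RPM, and in the myoblasts at 0.186, 0.422 and 0.218 RPM. Bmp2 fell by 1.34 on the log2 scale in culture (SE 0.31, adjusted p = 0.00871), and the pseudocount of 1 RPM makes this an understatement at such low levels, since it fell by 2.63 with a pseudocount of 0.1 RPM.

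Gdf6, a BMP-type ligand known for its role in joint and skeletal development, was also low (chromosome 4, 9844350 to 9862354, plus strand). It was at 0.918, 1.15 and 0.541 RPM in the WT MuSCs, against 14.0, 5.98 and 6.06 RPM in the Nedd4L-cKO MuSCs. All Nedd4L-cKO values were above all WT values and replicate 01 was the highest of them. The log2 fold change was 2.29 (SE 0.40, 95% interval 1.41 to 3.16, adjusted p = 0.0293), and the adjusted p ranged from 0.00664 to 0.0836 over the 14 alternatives. It was over 0.05 without WT MuSC replicate 01 (0.0544) or 02 (0.0635) and without Nedd4L-cKO replicate 01 (0.0724) or 02 (0.0836). Without WT MuSC replicate 03 its mean passed 5 RPM and Gdf6 was called (adjusted p = 0.0454). In the culture comparison it was at 0.825, 5.98 and 4.73 RPM in the freshly isolated MuSCs and at 4.50, 13.6 and 12.6 RPM in the myoblasts. The groups overlapped, and the lowest value of each was in replicate 04. The log2 fold change of 1.30 (SE 0.58, 95% interval -0.02 to 2.62) had an adjusted p of 0.101. Without myoblast replicate 04 the adjusted p was 0.0298, in a range of 0.0211 to 0.281 over the 14 alternatives.

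Chrdl2 (chromosome 7, 99655261 to 99683939, plus strand) encodes chordin-like 2, a secreted protein with cysteine-rich repeats that binds BMP ligands and keeps them from their receptors. It was at 287, 317 and 205 RPM in the WT MuSCs, against 36.3, 52.4 and 56.4 RPM in the Nedd4L-cKO MuSCs. The groups were far apart, with the lowest WT library over the highest Nedd4L-cKO library. Chrdl2 fell by 2.46 on the log2 scale (SE 0.27, 95% interval -3.05 to -1.86, adjusted p = 0.00296), from a mean of 270 ± 57.9 to 48.4 ± 10.6 RPM (SD, n = 3). By p it ranked 5 of 15304 tested genes. It was called under all 14 alternatives, with log2 fold changes from -2.64 to -2.27. In the freshly isolated MuSCs of the culture comparison it was at 559, 316 and 286 RPM, and in the myoblasts at 2.06, 1.15 and 0.381 RPM. Chrdl2 fell by 7.47 on the log2 scale in culture (SE 0.37, adjusted p = 2.65e-06). The myoblast values rest on 72.7, 40.5 and 13.4 normalized counts.

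Tgfbr3 (chromosome 5, 107249402 to 107437623, minus strand) encodes betaglycan, a membrane proteoglycan that presents TGF-beta ligands to their receptors and also binds BMP ligands and inhibin. It was at 855, 1275 and 664 RPM in the WT MuSCs, against 293, 510.0 and 426 RPM in the Nedd4L-cKO MuSCs. All Nedd4L-cKO values were below all WT values, with a log2 fold change of -1.17 (SE 0.30, 95% interval -1.83 to -0.51) that did not pass the adjustment (adjusted p = 0.108, range 0.0574 to 0.386 over the 14 alternatives). In culture it was at 1182, 609 and 661 RPM in the freshly isolated MuSCs and at 0.535, 0.496 and 0.0923 RPM in the myoblasts. Tgfbr3 fell by 9.17 on the log2 scale (SE 0.31, adjusted p = 6.22e-07), which ranked 8 of 15345 tested genes by p. The lowest myoblast value rests on 3.25 normalized counts.

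Smad6 (chromosome 9, 63860341 to 63929793, minus strand), the inhibitory SMAD of the BMP branch and itself a BMP target, was low in all 4 groups. It was at 0.990, 1.28 and 0.141 RPM in the WT MuSCs, against 1.55, 1.59 and 1.38 RPM in the Nedd4L-cKO MuSCs. The groups did not overlap, but the log2 fold change was 0.53 (SE 0.31, 95% interval -0.15 to 1.21, adjusted p = 0.463), and the lowest WT value rests on 6.16 normalized counts. In culture Smad6 was at 3.85, 1.36 and 0.722 RPM in the freshly isolated MuSCs and at 2.34, 12.9 and 7.09 RPM in the myoblasts. The groups overlapped, since replicate 04 was the highest of the MuSC libraries and the lowest of the myoblast libraries. The log2 fold change was 1.42 (SE 0.58, 95% interval 0.11 to 2.72, adjusted p = 0.0751). Without either of these libraries the adjusted p passed the threshold, at 0.0409 without the MuSC library and 0.0105 without the myoblast library, in a range of 0.0105 to 0.233 over the 14 alternatives.

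The Id genes encode the inhibitory partners of E proteins, and in culture Id1 rose while Id3 fell. Id2 (chromosome 12, 25143798 to 25147282, minus strand) was at 379, 523 and 511 RPM in the WT MuSCs, against 888, 1482 and 1198 RPM in the Nedd4L-cKO MuSCs. The groups did not overlap, and Id2 rose by 1.32 on the log2 scale (SE 0.26, 95% interval 0.74 to 1.89, adjusted p = 0.0467), from 471 ± 79.7 to 1189 ± 297 RPM (SD, n = 3). This adjusted p is close to the threshold. It was over 0.05 under 11 of the 14 alternatives, in a range from 0.0198 to 0.187, with log2 fold changes between 1.14 and 1.51. Leaving out any 1 library other than Nedd4L-cKO replicate 01 ended the call: the adjusted p was 0.157, 0.135 and 0.0633 without WT MuSC replicates 01, 02 and 03, and 0.187 and 0.0649 without Nedd4L-cKO replicates 02 and 03. In culture Id2 was at 252, 360.0 and 371 RPM in the freshly isolated MuSCs and at 326, 255 and 206 RPM in the myoblasts. These values overlapped, with a log2 fold change of -0.32 (SE 0.23, 95% interval -0.85 to 0.20, adjusted p = 0.290).

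Id1 (chromosome 2, 152566218 to 152579544, plus strand) was at 31.2, 35.2 and 33.6 RPM in the WT MuSCs, against 102, 73.8 and 56.8 RPM in the Nedd4L-cKO MuSCs. All Nedd4L-cKO values were above the narrow range of the WT values. The log2 fold change of 1.15 (SE 0.27, 95% interval 0.56 to 1.75) had an adjusted p of 0.0809. It passed in 2 of the 14 alternatives, at 0.0469 when only genes with at least 10 normalized counts in all 6 libraries were tested and at 0.0483 without Nedd4L-cKO replicate 03, and its highest value was 0.219. In culture Id1 was at 21.4, 44.6 and 50.5 RPM in the freshly isolated MuSCs and at 164, 142 and 113 RPM in the myoblasts. Id1 rose by 1.89 on the log2 scale (SE 0.32, 95% interval 1.16 to 2.63, adjusted p = 0.00184), under all 14 alternatives.

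Id3 (chromosome 4, 135870808 to 135873066, plus strand) was the most abundant of the BMP genes per kb in every group. It was at 1565, 2172 and 2218 RPM in the WT MuSCs, against 3810.5, 2818 and 2316 RPM in the Nedd4L-cKO MuSCs. The groups did not overlap, although the lowest Nedd4L-cKO library was close to the highest WT library, and the log2 fold change was 0.57 (SE 0.26, 95% interval -0.00 to 1.15, adjusted p = 0.343). In culture Id3 was at 1143, 1337 and 1659.9 RPM in the freshly isolated MuSCs and at 698, 932 and 623 RPM in the myoblasts. Id3 fell by 0.88 on the log2 scale (SE 0.21, 95% interval -1.37 to -0.40, adjusted p = 0.0100), the opposite direction to Id1, and was called under all 14 alternatives.

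**Figure D2:**
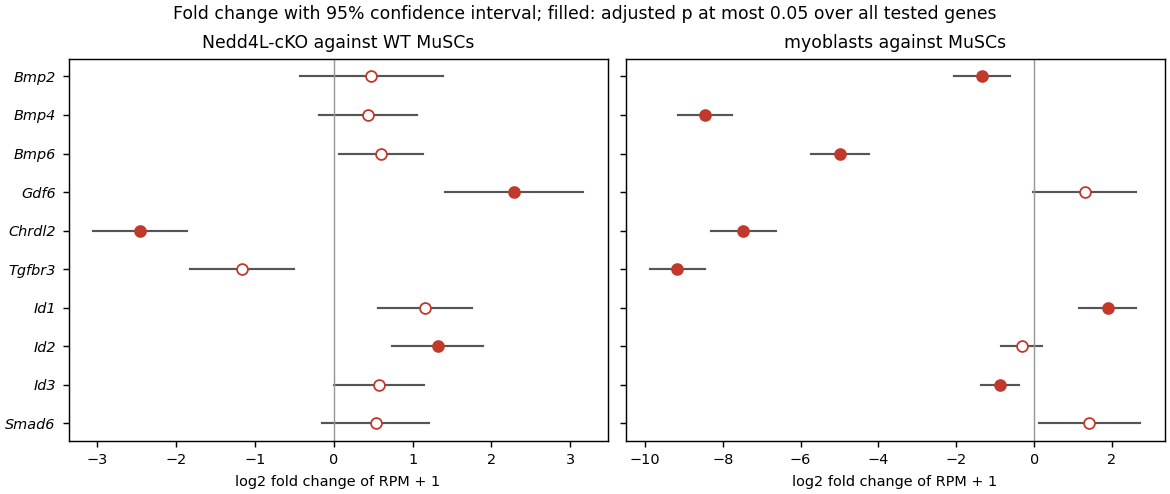
Log2 fold change of RPM + 1 of the 10 BMP genes between Nedd4L-cKO and WT MuSCs (left) and between myoblasts and freshly isolated MuSCs (right), with 95% confidence intervals; the 2 panels have different scales. Filled points passed an adjusted p of at most 0.05 over all tested genes, which were 3 of 10 genes on the left and 7 of 10 on the right.

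Over the 10 genes, the groups did not overlap for 8 in the genotype comparison, where 19.3% of all tested genes did not overlap, and for 7 in the culture comparison, where 55.2% did not. The median log2 fold change of the 10 genes was 0.55 between genotypes, where the median of all tested genes was 0.00, and -1.11 in culture, where it was 0.04. These are descriptions of a chosen list. At least 10 normalized counts in all 6 libraries were present for 9 of the 10 genes in the genotype comparison and for 6 in the culture comparison. The remaining 4 in culture, Bmp2, Bmp4, Bmp6 and Tgfbr3, needed the MuSC libraries to pass the filter on low values. Only 2 myoblast libraries for Tgfbr3, and 1 for each of the others, held 10 normalized counts. The filter thus favors higher MuSC values for such genes, and their number supports nothing beyond their own values.

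Per kb of exonic length, the order of levels in WT MuSCs ran from Id3 at 1108 ± 204 RPM per kb (SD, n = 3), over Tgfbr3 at 136 ± 45.6 and Id2 at 135 ± 22.9, to Chrdl2 at 71.3 ± 15.3 and Bmp4 at 43.5 ± 2.60 RPM per kb. Id1 followed at 18.8 ± 1.14 and Bmp6 at 12.7 ± 0.583 RPM per kb, and Bmp2, Gdf6 and Smad6 were at most 0.847 RPM per kb on average. Only Tgfbr3 and Id2, and Gdf6 and Smad6, were neighbors in this order whose libraries overlapped. In Nedd4L-cKO MuSCs Id3 and Id2 led at 1665 ± 425 and 341 ± 85.3 RPM per kb, and Chrdl2 stood below Bmp6, at 12.8 ± 2.81 against 19.6 ± 3.52 RPM per kb, with no overlap. In freshly isolated MuSCs Tgfbr3, Chrdl2, Id2 and Bmp4 were at 119 ± 46.3, 102 ± 39.5, 94.0 ± 19.0 and 93.7 ± 22.5 RPM per kb, and each overlapped with its neighbor. In myoblasts the 3 Id genes were at 419 ± 90.0, 78.6 ± 14.4 and 75.3 ± 17.3 RPM per kb for Id3, Id1 and Id2, and every other BMP gene averaged at most 2.87 RPM per kb.

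Side by side over the 4 groups, with no test between the separately normalized tables, Chrdl2 was ordered from freshly isolated MuSCs and WT MuSCs, which overlapped, over Nedd4L-cKO MuSCs to myoblasts. Id1 had the opposite order, with myoblasts highest, then Nedd4L-cKO MuSCs, and then both WT MuSC groups, which overlapped. Bmp4, Bmp6, Bmp2 and Tgfbr3 were lowest in myoblasts with no overlap with the next group. Gdf6 was highest in myoblasts and Nedd4L-cKO MuSCs, which overlapped. It was next in freshly isolated MuSCs, whose highest library, at 5.975 RPM, was just under the lowest Nedd4L-cKO library at 5.984 RPM. The freshly isolated MuSCs overlapped with the WT MuSCs of the genotype comparison, which were lowest. The 2 groups of WT MuSCs differed without overlap for Bmp4, at 228 ± 13.6 RPM in the genotype cohort and 491 ± 118 RPM in the culture cohort. They also did so for Bmp6 and Id2, which were higher in the genotype cohort. The share of all genes that differed in this way between these groups was not determined.

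The makeup of the Id pool can be compared within a library. Id3 made up 87.4%, 87.7% and 88.2% of the summed RPM per kb of Id1, Id2 and Id3 in the WT MuSCs, and 87.2%, 77.1% and 77.5% in the Nedd4L-cKO MuSCs. Id2 made up 10.9%, 10.9% and 10.4% in the WT MuSCs and 10.4%, 20.8% and 20.6% in the Nedd4L-cKO MuSCs, so in replicate 01 of the latter the Id2 share was near those of the WT libraries. Id1 made up 1.76%, 1.44% and 1.35% in the WT MuSCs and 2.36%, 2.04% and 1.92% in the Nedd4L-cKO MuSCs, with no overlap. In the culture comparison Id1 made up 1.67%, 2.87% and 2.68% of the sum in the freshly isolated MuSCs and 16.0%, 11.9% and 13.5% in the myoblasts. The groups did not overlap for this share. The sum of the 3 genes itself was between 723 and 1062 RPM per kb in freshly isolated MuSCs and between 471 and 674 RPM per kb in myoblasts.

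**Figure D3:**
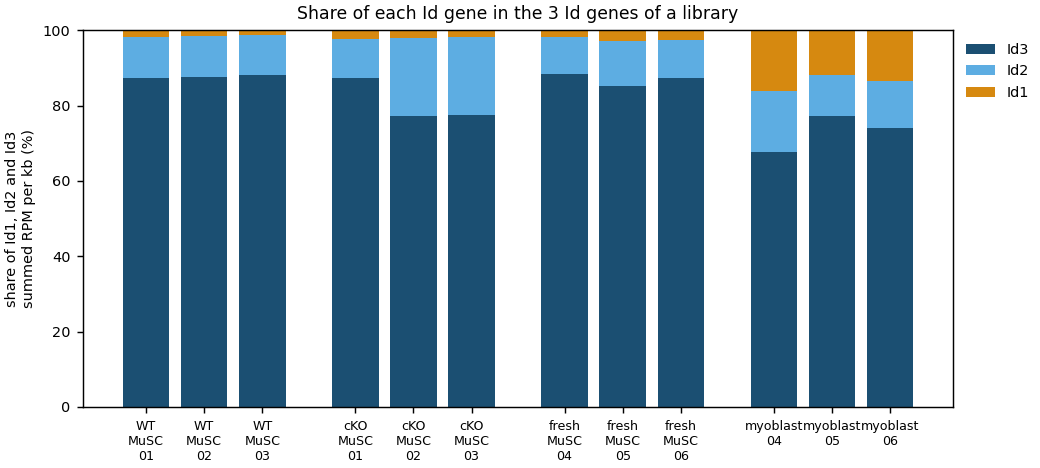
Share of Id3, Id2 and Id1 in the summed RPM per kb of these 3 genes, in percent, 1 bar per library. Id1 takes between 11.9% and 16.0% in the 3 myoblast libraries and at most 2.87% in the 9 MuSC libraries, and Id2 takes over 20% in Nedd4L-cKO replicates 02 and 03.

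The other BMP pathway genes were taken from 5 lists by role, with 74 genes besides the 10. In the genotype comparison 49 of them were tested and none was called by limma, while 9 had an unadjusted p under 0.05 (4 higher, 5 lower), a share close to the 14.6% of all tested genes with such a p. The list medians of the log2 fold change were 0.11 for ligands, -0.10 for antagonists and modulators, 0.31 for receptors and co-receptors, -0.31 for SMADs and their regulators, and -0.35 for target transcription factors. The Id partners (7 tested) and the TGF-beta and activin branch (22 tested) also had 0 calls, with medians of 0.18 and -0.01, and 0 and 3 genes at an unadjusted p under 0.05. The gene nearest to a call, named after its values were seen, was Smoc1, a secreted BMP modulator, at 3.27 ± 1.94 RPM in the WT and 18.2 ± 8.17 RPM in the Nedd4L-cKO MuSCs (SD, n = 3), with a log2 fold change of 2.17 (SE 0.45, adjusted p = 0.0503).

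In the culture comparison 52 of these 74 genes were tested and 26 passed, 12 higher and 14 lower, against 42.8% of all tested genes. Of the 12 higher genes, 10 had under 10 normalized counts in 1 or more MuSC libraries and passed the filter on low values through the myoblasts, while all 14 lower genes had 10 or more in all 6 libraries. For genes let in by 1 group, the filter favors higher values in that group, so this split supports nothing beyond the values of each gene. With 10 normalized counts required in all 6 libraries, the calls of the 5 lists changed, the 10 BMP genes included. They went from 13 higher and 20 lower to 3 higher and 16 lower. In the unadjusted test 30 of the 52 had a p under 0.05, against 51.5% of all tested genes. Among the 15 antagonists and modulators tested, 4 rose and 3 fell. Among those that rose, Nog, Smoc2 and Sost had no MuSC library at 10 normalized counts and Fst had 2. Nog, the antagonist noggin, was at 0.0431 ± 0.0374 RPM in MuSCs and 4.30 ± 2.19 RPM in myoblasts (log2 fold change 2.24, adjusted p = 0.00115). Fst, follistatin, which binds activin and several BMPs, was at 0.360 ± 0.342 and 33.1 ± 23.5 RPM (log2 fold change 4.26, adjusted p = 0.00127). Smoc2, a relative of Smoc1, was at 0.00752 ± 0.0130 RPM in MuSCs and 13.6 ± 6.21 RPM in myoblasts (adjusted p = 0.000145). Sost, sclerostin, was listed at 0 in all 3 MuSC libraries and averaged 1.72 ± 0.812 RPM in myoblasts. Smoc2 also stands in the fibro-adipogenic progenitor marker list. In the opposite direction, Fstl1, a secreted follistatin-like glycoprotein, was at 2424 ± 190 RPM in MuSCs and 49.4 ± 4.82 RPM in myoblasts and fell by 5.59 on the log2 scale (adjusted p = 2.73e-07). Bmp1, a protease that cleaves chordin, and Twsg1, which binds BMPs and chordin, fell, with log2 fold changes of -1.75 and -1.14 (adjusted p = 0.0105 and 0.0118).

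Among the 13 other receptors and co-receptors tested in culture, 2 rose and 4 fell. Hjv, the BMP co-receptor hemojuvelin of muscle and liver, was at 0.603 ± 0.826 RPM in MuSCs and 50.7 ± 25.5 RPM in myoblasts (log2 fold change 4.97, adjusted p = 0.000120). Its relatives Rgma and Rgmb went the other way and fell, with log2 fold changes of -2.35 and -2.65 (adjusted p = 0.000950 and 0.00542). Bambi, a decoy receptor without a kinase domain, was at 60.7 ± 23.3 RPM in MuSCs and 6.09 ± 2.36 RPM in myoblasts and fell by 3.11 (adjusted p = 0.000213). Acvr2b, a type II receptor, fell by 1.76 (adjusted p = 0.0120), and the type I receptor gene Bmpr1b rose by 1.37 (adjusted p = 0.0168), a call that ended without freshly isolated MuSC replicate 06 (adjusted p = 0.0547).

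Of the 13 other SMADs and intracellular regulators tested in culture, 6 fell and none rose. Smad4, the common partner SMAD, was at 31.0 ± 7.24 RPM in MuSCs and 15.2 ± 6.66 RPM in myoblasts and fell by 1.06 on the log2 scale (adjusted p = 0.0450). The corepressor genes Ski and Skil fell, with log2 fold changes of -0.87 and -1.08 (adjusted p = 0.0328 and 0.0101), Ppm1a, a phosphatase that acts on SMADs, fell by 1.21 (adjusted p = 0.00218), and Tob1 and Tob2, antiproliferative proteins that bind SMADs, fell, with log2 fold changes of -1.56 and -1.45 (adjusted p = 0.00770 and 0.0282). The call of Smad4 held under 8 of 14 alternatives (adjusted p up to 0.148) and ended when any 1 library other than myoblast replicate 06 was left out. It also ended with each library scaled to its own total, as did that of Ski. The call of Ski held under 9 of 14 (up to 0.0899) and ended without freshly isolated MuSC replicate 04 or 05 or myoblast replicate 05 or 06, and that of Tob2 under 10 of 14 (up to 0.0744), ending without freshly isolated MuSC replicate 04 or 06 or myoblast replicate 04.

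Of the 8 other target transcription factors tested in culture, 5 rose and 1 fell. Runx2, a regulator of bone formation, was at 0.215 ± 0.253 RPM in MuSCs and 43.0 ± 8.39 RPM in myoblasts (log2 fold change 5.18, adjusted p = 8.09e-06). Gata2 was at 0.410 ± 0.371 and 41.1 ± 11.2 RPM (log2 fold change 4.90, adjusted p = 1.75e-05), and its relative Gata3 at 0.532 ± 0.443 and 11.4 ± 6.43 RPM (log2 fold change 2.93, adjusted p = 0.000798). Dlx3, a homeobox gene, was at 0.0108 ± 0.0186 RPM in MuSCs and 9.66 ± 0.982 RPM in myoblasts (adjusted p = 3.08e-05), and it passed the filter through the myoblast libraries alone. Atoh8, a bHLH factor, rose by 1.33 on the log2 scale (adjusted p = 0.0158, up to 0.0596), a call that ended without freshly isolated MuSC replicate 05 or 06 or myoblast replicate 05. Hey1, which is also a Notch target, was at 167 ± 10.8 RPM in MuSCs and 7.56 ± 2.29 RPM in myoblasts and fell by 4.32 (adjusted p = 5.93e-06). Of the 3 other ligands tested, Bmp3 rose from 0.0818 ± 0.0442 to 0.514 ± 0.174 RPM (adjusted p = 0.0467), with no MuSC library at 10 normalized counts. The call of Bmp3 held under 4 of the 10 alternatives in which it was tested and ended without any 1 of the freshly isolated MuSC libraries (adjusted p up to 0.335). It also ended with the replicate block, with quantile normalization and without trend and robust moderation.

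The partners of the Id proteins had 4 genes higher and 1 lower of 7 tested in culture, and 3 of these genes are also in the marker lists, Myod1 and Myog for myoblasts and Myf5 for MuSCs. Myod1 was at 178 ± 10.7 RPM in MuSCs and 1379 ± 402 RPM in myoblasts (log2 fold change 2.91, adjusted p = 2.43e-05), and Myog at 659 ± 117 and 3747 ± 671 RPM (log2 fold change 2.51, adjusted p = 3.01e-05). Myf6 rose by 3.21 (adjusted p = 0.000451), and the E-protein gene Tcf3 rose by 2.03, from 29.8 ± 1.64 to 128 ± 34.3 RPM (adjusted p = 0.000275). Myf5, an early myogenic factor, was at 329 ± 73.2 RPM in MuSCs and 25.8 ± 7.61 RPM in myoblasts and fell by 3.64 (adjusted p = 1.49e-05). In the TGF-beta and activin branch 5 of 22 tested genes rose and 5 fell. Inha, the inhibin alpha subunit, Mstn, myostatin, Ltbp2, a matrix protein that binds microfibrils, Tgfb1 and Ltbp1, which tethers latent TGF-beta, rose by 5.28, 4.73, 1.77, 1.54 and 0.59 (adjusted p = 0.000599, 0.000568, 0.00433, 0.00615 and 0.0496). Ltbp2 passed the filter on low values through the myoblast libraries alone, and Mstn had 1 MuSC library at 10 normalized counts. Of those that fell, Ltbp4, Tgfbi, Inhbb and Tgif1 had log2 fold changes of -4.60, -1.87, -1.73 and -0.73 (adjusted p = 3.48e-05, 0.00292, 0.00187 and 0.0269). The calls of Ltbp1 and Tgif1 held under 7 and 9 of 14 alternatives, with adjusted p up to 0.162 and 0.0984. The call of Ltbp1 ended without freshly isolated MuSC replicate 05 or 06 or myoblast replicate 04 or 05, and that of Tgif1 without freshly isolated MuSC replicate 04 or myoblast replicate 06. Both also ended without trend and robust moderation. The call of Ltbp1 further ended with a pseudocount of 0.1 RPM and with no filter on low values. That of Tgif1 ended with each library scaled to its own total and with quantile normalization.

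**Figure D4:**
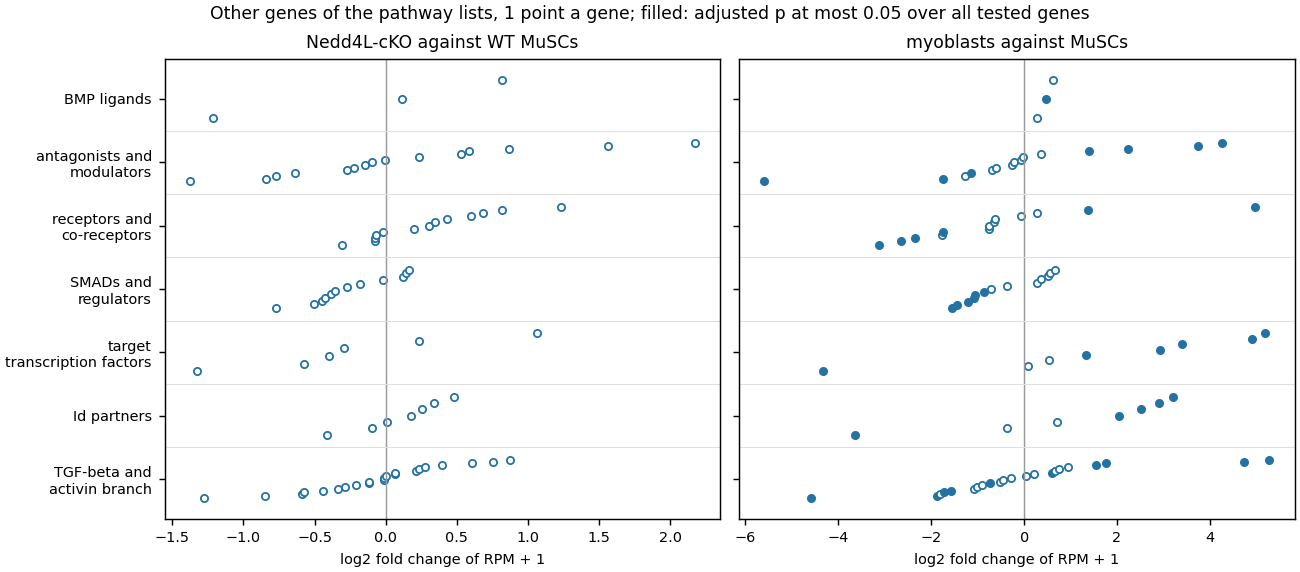
Log2 fold change of RPM + 1 of the other genes of the BMP pathway lists, the Id partners and the TGF-beta and activin branch, 1 point per tested gene, between genotypes (left) and in culture (right), on different scales. Filled points passed an adjusted p of at most 0.05: none on the left, and on the right 26 of the 52 tested genes of the 5 BMP lists, with 6 SMAD and regulator genes all below 0.

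The genes most like each BMP gene were found among 14342 genes tested in both comparisons, by the root mean square (RMS) difference of log2(RPM + 1) over the 12 libraries after centering each table on its WT MuSCs. Tgfbr3 was nearest to Msc (RMS difference 0.38), Dpt (0.59) and Nppc (0.68). Bmp4 was nearest to Fosb (0.37), Fos (0.39) and Serping1 (0.40). Chrdl2 stood farther from any other gene, with Calcr, the calcitonin receptor of quiescent MuSCs, at 0.85, Medag at 1.03 and Tgfbr3 at 1.08. Bmp6 was nearest to Tmem51 (0.25), Olfml3 (0.26) and Nmi (0.33), and Gdf6 to Glrx (0.46), Sdf2l1 (0.51) and Hspb1 (0.51). For the BMP genes that moved less the nearest genes were Usp25, P3h3 and Dexi for Bmp2, Ahsa2, Plscr1 and Aaas for Id1, Slc22a4, mt-Co2 and Cetn4 for Id2, Tmem68, Tmem205 and Trappc2 for Id3, and Tef, Fam189b and Tom1l2 for Smad6, at RMS differences of 0.17 to 0.38. The libraries share their groups, so this likeness describes these 4 groups and has no test.

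Markers of other cells moved with the groups in some cases. Between genotypes, the levels of 7 listed smooth muscle and pericyte markers were summed. The sum was between 1186 and 1967 RPM in WT and between 2182 and 3312 RPM in Nedd4L-cKO MuSCs. Of the 7 markers 0 were called, and 5 were higher at an unadjusted p under 0.05. Over all tested genes, 14.6% had such a p in either direction. Among the 7 markers, Rgs5 was at 280.1, 570 and 1034 RPM in WT, against 355, 1270.4 and 1945 RPM in Nedd4L-cKO MuSCs. The summed level of the 12 myofiber markers was between 311 and 499 RPM in WT and between 534 and 723 RPM in Nedd4L-cKO MuSCs. Of the 12 markers 9 had an unadjusted p under 0.05, 8 of them higher in Nedd4L-cKO MuSCs. The 1 called myofiber marker, Actn3, went against the sum. It was at 102, 115 and 72.3 RPM in WT and 36.1, 37.1 and 27.7 RPM in Nedd4L-cKO MuSCs (adjusted p = 0.0327). Of the 13 MuSC markers 1 was called, Cd34, which was at 267, 349 and 243 RPM in WT and at 116, 102 and 62.5 RPM in Nedd4L-cKO MuSCs (adjusted p = 0.0293), and 4 were lower at an unadjusted p under 0.05. The myoblast markers and the dissociation response genes also had 1 call each. Ccnb1 was at 17.9 ± 12.9 and 75.4 ± 14.5 RPM, and Ier3 at 32.7 ± 3.96 and 83.3 ± 17.6 RPM (SD, n = 3). At an unadjusted p under 0.05 were 5 of 11 myoblast markers, all 5 higher, and 5 of 12 dissociation response genes, 2 of them higher. The sums overlapped between genotypes for the MuSC markers (6271 to 10411 against 5342 to 8787 RPM), the myoblast markers (241 to 1054 against 633 to 1139 RPM), the fibro-adipogenic progenitor markers (2571 to 3542 against 2155 to 4199 RPM), the tenocyte markers (181 to 1521 against 328 to 1122 RPM), the Schwann cell markers (618 to 717 against 638 to 733 RPM), the endothelial markers (59.0 to 110.0 against 42.8 to 80.2 RPM), the hematopoietic markers (2.79 to 39.1 against 1.92 to 9.59 RPM) and the dissociation response genes (7254 to 8854 against 7853 to 9183 RPM). The part of these cells or states in the values of Chrdl2, Id2 and Gdf6 was not tested.

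In culture, the 12 dissociation response genes, which include Fos and Fosb, summed to between 9800 and 16116 RPM in freshly isolated MuSCs and to between 636 and 816 RPM in myoblasts, and 11 of 12 fell. The fibro-adipogenic progenitor markers summed to between 3065 and 3546 RPM in MuSCs and to between 260.0 and 375 RPM in myoblasts, while their defining gene Pdgfra was at most 2.83 RPM in these 6 libraries. The MuSC markers went from between 6452 and 9148 RPM to between 841 and 942 RPM, the myoblast markers from between 1384 and 1824 RPM to between 8392 and 14139 RPM, and the myofiber markers from between 399 and 615 RPM to between 10141 and 23708 RPM. The Schwann cell markers, nearly all from Pmp22, went from between 694 and 771 RPM to between 32.6 and 54.9 RPM. The endothelial markers were between 45.1 and 47.4 RPM in MuSCs and between 14.1 and 25.1 RPM in myoblasts, the tenocyte markers between 10.9 and 11.8 RPM and between 23.4 and 107 RPM, the smooth muscle and pericyte markers between 1097 and 1405 RPM and between 1656 and 2415 RPM, and the hematopoietic markers between 3.20 and 5.62 RPM and between 2.24 and 3.24 RPM. The smooth muscle and pericyte sums in culture were nearly all Acta2, between 1078 and 1382 RPM in MuSCs and between 1610 and 2400 RPM in myoblasts. The tenocyte sums were mostly Scx, between 8.55 and 9.74 RPM and between 20.7 and 105 RPM. The part of the dissociation response in the high MuSC values of Bmp4 and Tgfbr3 was not tested.

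By the annotation, Bmp6 overlaps the protein-coding gene Txndc5 on the opposite strand, and Bmp4, Gdf6, Tgfbr3, Id1, Id2 and Id3 overlap noncoding genes on the opposite strand (Tgfbr3 also a pseudogene, and unclassified transcripts on its own strand). The libraries do not keep the strand, so reads in the shared parts cannot be told apart. Bmp2, Chrdl2 and Smad6 overlap no other gene.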

How the data were processed

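RNA of 1000 cells per library was amplified with the SMART-Seq HT kit and tagged with Nextera XT, in 12 libraries of 4 groups. The authors ran Kallisto 0.46.1 (single-end, fragment length 200, SD 20) against the GENCODE M28 basic annotation, then tximport and DESeq2. The deposited values are a signal: gene counts after division by the authors' normalization factors, with 1 table per comparison. Of a library's values under 60, only 26.0% to 60.0% lay within 0.05 steps of a whole multiple of 1 fitted step, so reads were not recovered and depth is unknown. The authors' own fold changes, p-values and RPM columns were not used, and 0 value columns were left unmatched to a sample.

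RPM was obtained by dividing normalized counts by the mean total of the 6 libraries in a table. A gene was tested if 3 or more libraries held 10 or more normalized counts. The test, on log2(RPM + 1), was limma 3.58.1 in R 4.3.3 (trend and robust moderation, group as the only term), with Benjamini-Hochberg adjustment over all tested genes, and it was checked on simulated data. Genotype libraries came from separate mice. Nothing says so for the culture libraries, whose p-values measure the spread between these samples, which may be technical.

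Replicate numbers are shared between groups. In culture, the sample descriptions also give same-numbered MuSC and myoblast libraries another number in common, while the descriptions of the genotype libraries all differ in number. No label ties a number to an animal, so a shared origin of the culture libraries is possible but not stated. No pairing was assumed in the main fit, and a replicate block was an alternative. The other alternatives were the pseudocount, filters on low values, scaling of libraries, moderation, the call threshold and each library left out in turn.

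The 10 genes and the gene lists were chosen with earlier results of these data known. The genes named are these 10, the other list genes called (the 4 with the smallest p where over 6 of a list passed in 1 direction), the 3 most alike genes, Nedd4l and defining markers. The values of 1 called list gene are not reported here. Positions, exonic lengths and sequences are from GRCm39 with GENCODE M39. Python 3.11.15 and matplotlib 3.10.9 were used.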

Additional observations from a re-analysis of the deposited data

How the results depend on the processing

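No value of the 10 BMP genes changed sign under any alternative in either comparison. Between genotypes, the 100 genes called became 62 with the replicate block (53 of them shared), 195 when at least 10 normalized counts were required in all 6 libraries (97 shared) and 41 without trend and robust moderation (40 shared). Without 1 library they were between 17 and 148: without Nedd4L-cKO replicate 02 they were 17, without WT MuSC replicate 02 32, without Nedd4L-cKO replicate 01 49 and without WT MuSC replicate 01 62. The split was 69 higher and 31 lower, and it became 49 and 38 with each library scaled to its own total and 67 and 68 without Nedd4L-cKO replicate 03. Of the 5 BMP lists, 2 genes were called, Chrdl2 and Id2. This was 1 with the replicate block, a pseudocount of 0.1 RPM, no filter on low values, own-total scaling, quantile normalization, or no trend and robust moderation, 5 under the all-library filter, and 1 to 3 without 1 library. Same-numbered genotype libraries came from separate mice and share only a number. Their deviations from the group means correlated at 0.0192, -0.0232 and -0.181. Under the block Id2 had an adjusted p of 0.0663.

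In culture, the 6566 genes called became 3872 under the stricter rule of the genotype comparison, and 4593 to 6398 without 1 library. Same-numbered culture libraries correlated at -0.0314, -0.00502 and 0.018 in their deviations from the group means. Not every library correlated best with its own number. With 3 libraries per group, these values cannot decide whether a shared number stands for a shared animal. With the replicate block 6078 genes were called. The 33 called genes of the BMP lists were 19 under the all-library filter, where the split of 13 higher and 20 lower became 3 and 16, since 10 higher genes and Bmp2, Bmp4, Bmp6 and Tgfbr3 could not be tested, 25 to 31 without 1 library and 35 under the block. The block changed no call of the 10 BMP genes in culture other than that of Gdf6 (adjusted p = 0.0211), and of the genes named Bmp3 (0.0758) and Tob2 (0.0564) did not pass under it. Scaling each library to its own total moved the median log2 fold change of all genes from 0.04 to 0.14 and the split from 3402 higher and 3164 lower to 3880 and 2714, with no change of direction among the 10. Unknown depth limits the myoblast values of Bmp2, Bmp4, Bmp6 and Tgfbr3, which rest on few normalized counts.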
